A study of Mus musculus with 3 samples.

Results

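The genes described here encode the vomeronasal type 1 receptors of the mouse, and they were taken as every protein-coding gene of the mm9 annotation (GENCODE M1) whose symbol starts with Vmn1r. The rule gave 203 gene records of 22380 protein-coding genes, with 202 distinct symbols, because Vmn1r63 is listed under 2 overlapping identifiers. ChIP-seq peaks of NE4C cells were counted in these genes and in the stretches of chromosome that hold them. NE4C is a line of neural stem cells from the mouse, and the cells had received no homocysteine thiolactone (HTL). Chromatin had been immunoprecipitated with an antibody to homocysteinylated lysine 79 of histone H3 (H3K79Hcy), with one to homocysteinylated lysine in general (KHcy), or with one to H3K4me3, a mark of active promoters. There was 1 library per antibody and there were no replicates, so no p-value is given, and intervals cover counting error only. The H3K79Hcy list held 7387 peaks with 209335 reads, the KHcy list 7300 with 276864 reads and the H3K4me3 list 19339 with 787308 reads.

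Vomeronasal type 1 receptors are G protein-coupled receptors that detect pheromones and related chemical cues. They are made in sensory neurons of the vomeronasal organ that use the G protein subunit Gnai2, and each such neuron is thought to express a single receptor gene of the family. The genes lie in tandem clusters that arose by repeated duplication, and their coding sequence is typically a single exon. Expression of these genes was not measured in the peak lists, so their silence in neural stem cells was taken from their known tissue restriction and not from these data.

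In the annotation the genes were short, with a median length of 930 bp (quartiles 918 and 1052 bp), against 15.4 kb over all protein-coding genes. The coding sequence was annotated as a single interval in 194 of the 203, and its translation had a median of 307 residues. In 142 genes the annotated start was the first coding base, so that no 5′ untranslated exon was annotated and the true transcription start may lie upstream. The genes were found on 7 chromosomes, with 103 on chromosome 7, 51 on chromosome 6, 32 on chromosome 13 and 13 on chromosome 17, while chromosome 4 held 2 and chromosomes 1 and 18 held 1 each. With genes joined when at most 500 kb apart, they formed 15 stretches that spanned 11.2 Mb, of which 10 held at least 5 genes and 196 genes together.

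The 250 bases before the annotated start are shown for 3 receptor genes, because these are the places where a promoter mark would be looked for. Vmn1r64 (chr7:5836145-5836394, minus strand) was the only member whose start lay inside a peak. Vmn1r55 (chr7:5099104-5099353, minus strand) opens the same stretch and had no peak over its start. Vmn1r188 (chr13:22179497-22179746, plus strand) opens the stretch of chromosome 13. The sequences were read from mm9, 5′ to 3′, and capitals mark each CpG.
Vmn1r64: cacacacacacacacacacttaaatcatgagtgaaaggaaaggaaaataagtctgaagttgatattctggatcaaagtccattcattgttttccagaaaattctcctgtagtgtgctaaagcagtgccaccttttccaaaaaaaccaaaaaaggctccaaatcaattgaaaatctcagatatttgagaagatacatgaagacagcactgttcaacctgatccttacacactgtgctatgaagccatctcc
Vmn1r55: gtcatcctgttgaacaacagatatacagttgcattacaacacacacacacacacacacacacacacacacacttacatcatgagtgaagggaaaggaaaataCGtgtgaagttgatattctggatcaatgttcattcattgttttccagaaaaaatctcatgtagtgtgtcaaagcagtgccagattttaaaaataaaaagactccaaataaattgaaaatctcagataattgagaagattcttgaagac
Vmn1r188: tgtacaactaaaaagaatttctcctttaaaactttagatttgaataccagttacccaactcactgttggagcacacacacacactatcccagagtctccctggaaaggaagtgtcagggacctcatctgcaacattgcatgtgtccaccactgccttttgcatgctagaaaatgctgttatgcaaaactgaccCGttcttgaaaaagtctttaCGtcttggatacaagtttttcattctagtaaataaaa
The window of Vmn1r64 held 0 CpG, that of Vmn1r55 held 1 and that of Vmn1r188 held 2. The windows of Vmn1r55 and Vmn1r64 were 87.7% identical over 203 aligned positions, although a peak covered the start of one gene and not of the other.

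No Vmn1r gene body overlapped a peak of either homocysteinylation list. For H3K79Hcy the count was 0 of 203 genes, against 7.82% of all protein-coding genes, and for KHcy it was 0 of 203, against 9.28%. A count of 0 of 203 allows a share of up to 1.48%. H3K4me3 peaks overlapped 3 of 203 bodies, or 1.48% (Wilson interval 0.504 to 4.25%), against 19.7% of all protein-coding genes. The 3 genes were Vmn1r64, Vmn1r65 and Vmn1r90, all on chromosome 7.

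At gene starts the lists showed a single case. No Vmn1r start lay inside an H3K79Hcy or a KHcy peak, where the shares over all protein-coding genes were 0.416% and 0.996% and are themselves below the share that a count of 0 allows. One start, that of Vmn1r64, lay inside an H3K4me3 peak, which is 0.493% (0.087 to 2.74%) against 5.41% of all starts. The H3K4me3 list covered few starts of active genes as well. Of 12 housekeeping genes, including Gapdh and Eef1a1, 0 had an H3K4me3 peak over the start and 3 had one in the body (Gapdh, Ppia and Rplp0). Of 9 neural stem cell markers found in the annotation, 1 start, that of the intermediate filament gene Nes, lay inside an H3K4me3 peak. The bodies of Nes, Notch1 and Sox2 overlapped one. Within 1 kb of the start an H3K4me3 peak was found for 1 of 203 Vmn1r genes (0.493%, 0.087 to 2.74%), 1 of 12 housekeeping genes (8.33%, 1.49 to 35.4%) and 3 of 9 neural stem cell markers (33.3%, 12.1 to 64.6%), against 13.6% of all genes. The interval of the markers lay above that of the receptor genes, and the interval of the housekeeping genes overlapped it.

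The other chemosensory receptor families lie in clusters too, and they were set beside the Vmn1r genes. The Vmn2r genes encode the second family of vomeronasal receptors, which have several exons and a median length of 22.4 kb. Of 125 Vmn2r genes, 6 overlapped an H3K79Hcy peak (4.8%, 2.22 to 10.1%), 7 a KHcy peak (5.6%, 2.74 to 11.1%) and 12 an H3K4me3 peak (9.6%, 5.58 to 16%). The intervals of the Vmn2r genes lay above those of the Vmn1r genes for each of the 3 antibodies. On chromosome 7 alone they did not, since 0, 0 and 2 of 51 Vmn2r genes overlapped a peak of H3K79Hcy, KHcy and H3K4me3 (upper bounds 7.0, 7.0 and 13.2%), against 0, 0 and 3 of 103 Vmn1r genes. The Olfr genes, which encode the odorant receptors, numbered 1113, of which 11 overlapped an H3K79Hcy peak (0.988%, 0.553 to 1.76%), 20 a KHcy peak (1.8%, 1.17 to 2.76%) and 46 an H3K4me3 peak (4.13%, 3.11 to 5.47%). These intervals overlapped those of the Vmn1r genes. None of the 15 Taar genes, for trace amine-associated receptors, overlapped a peak, a count too small to separate them from any other set.

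**Figure D1:**
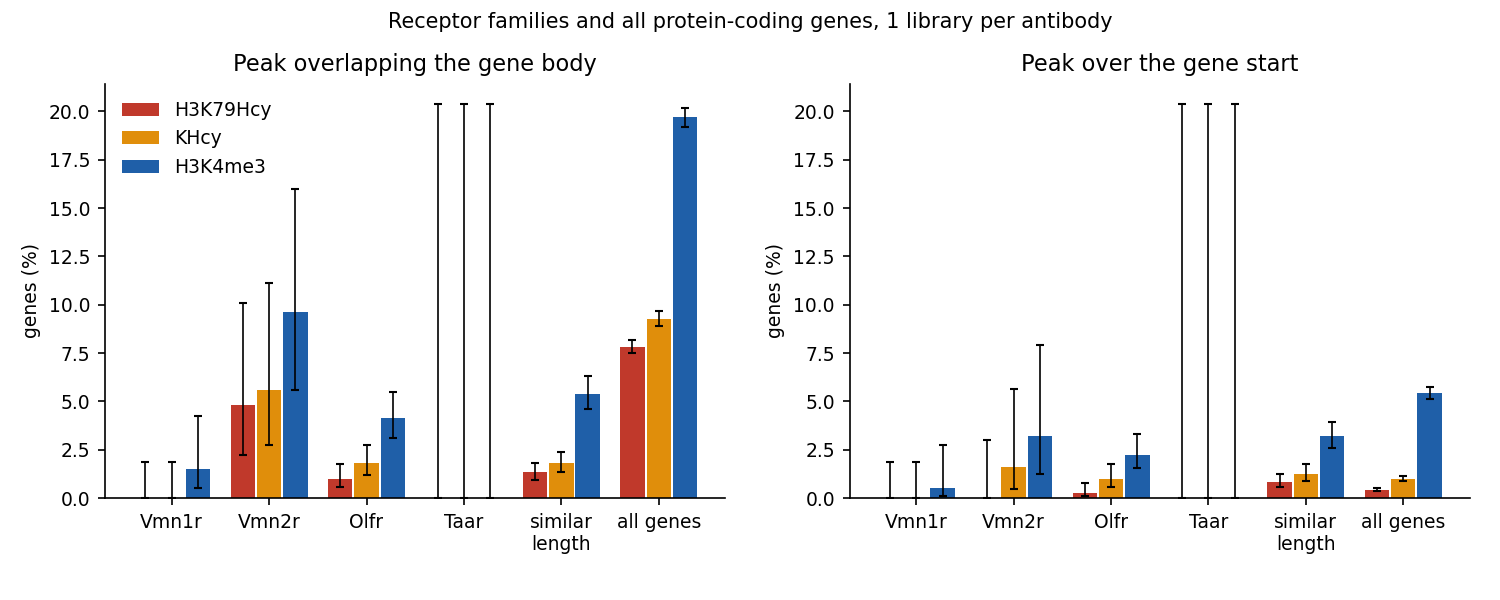
Percentage of genes with a peak overlapping the body (left) or the start (right), for the receptor families, for genes of 897 to 2428 bp and for all protein-coding genes. Bars are shares in 1 library per antibody and error bars are 95% Wilson intervals of counting. For Vmn1r the bars stand at 0, 0 and 1.48% in the left panel and at 0, 0 and 0.493% in the right one.

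Part of the distance from the average gene went with gene length and chromosome. Among the 2729 protein-coding genes of 897 to 2428 bp, the range between the 5th and 95th percentile of Vmn1r lengths, members included, 1.32% overlapped an H3K79Hcy peak, 1.8% a KHcy peak and 5.39% an H3K4me3 peak. The first of these values lies within the interval of the Vmn1r genes, which reaches 1.86%, and so does the second, while the H3K4me3 value lies above the upper bound of 4.25%. With the 4 receptor families left out, the 1545 genes of this length had shares of 2.01%, 2.33% and 7.44%, each above the upper bound of the Vmn1r genes. The homocysteinylation comparison thus depended on whether receptor genes were in the reference set. It also differed by chromosome. On chromosome 7, 0 of 103 Vmn1r genes overlapped an H3K79Hcy or a KHcy peak (upper bound 3.6%). The shares there were 0.483% and 0.627% of all genes, and 0.206% and 0.0% in the same length range. On chromosome 6, 0 of 51 Vmn1r genes did (upper bound 7.0%). There the shares were 16.5% and 18.4% of all genes, and 2.52% and 1.89% in the same length range. On chromosome 7, which carried few peaks for its length, 3 of 103 Vmn1r genes overlapped an H3K4me3 peak (2.91%, 0.995 to 8.22%), against 3.96% of all 2072 genes there and 1.03% of the 485 in the same length range. On chromosome 6, where 27.2% of 1171 genes overlapped an H3K4me3 peak, 0 of 51 Vmn1r genes did, with an upper bound of 7.0%, against 5.03% of the 159 genes in the same length range. In both cases the value of the genes in the same length range lay inside the interval of the Vmn1r genes. These sets include the members, which make up a sizeable part of them, so they are not an independent reference. On chromosome 7, Vmn1r65 (3261 bp) and Vmn1r90 lie outside the length range, so they are not among the 485. Chromosomes 13 and 17 were not compared in this way.

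Vmn1r64 (chr7:5835182-5836144, minus strand) has its coding sequence in a single exon. The H3K4me3 peak at chr7:5835601-5837400 covered its start with 26 reads over 1800 bp, which was 2.09-fold over the background of the library. The fold is the number of reads divided by the background expected over the same length, and its median over all H3K4me3 peaks was 2.59. This peak did not pass the stricter score, and 27.9% of its 31-base words occurred elsewhere in the genome.

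Vmn1r65 (chr7:5959352-5962612, minus strand) carried a narrower and stronger peak at the other end of the gene. The H3K4me3 peak at chr7:5959401-5960000 held 21 reads in 600 bp, which was 5.07-fold over background and passed the stricter score. It lay over the last exon, across the end of the coding sequence and the annotated 3′ untranslated region, and its edge was 2.61 kb from the start of the gene. It ranked second in fold among the H3K4me3 peaks of the Vmn1r stretches.

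Vmn1r90 (chr7:15116003-15208415, minus strand) overlapped 7 H3K4me3 peaks, with 24 to 48 reads and folds of 2.17 to 3.50, of which 4 passed the stricter score. Its gene model departs from the family. It spans 92.4 kb with several coding exons, and 22.6% of the 4-residue words of its translation were found in any other member, which was the lowest value of the 203 genes, the next being 38% and the median 90.1%. The 1 kb around its start held 132 CpG at a GC content of 74.8%, and the nearest H3K4me3 peak lay 1.01 kb from the start. Without Vmn1r90, 2 Vmn1r bodies overlapped an H3K4me3 peak. H3K4me3 peaks covered 2.34% of the bases of all Vmn1r bodies, against 1.61% of the genome, and 0.55% of the bases of Vmn1r genes up to 5 kb long, which leaves out Vmn1r90.

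CpG-rich starts carry H3K4me3 in most cell types, and the Vmn1r starts are poor in CpG. The 1 kb centred on the start held a median of 4 CpG (quartiles 2 and 5), against 40 over all protein-coding genes and 66 over the housekeeping genes. The values of Vmn2r, at a median of 3, and Olfr, at a median of 5, were close to those of Vmn1r. In 169 Vmn1r genes the window held 0 to 5 CpG, in 31 it held 6 to 10, in 2 it held 11 to 20, and Vmn1r90 stood alone above. Over all protein-coding genes with 0 to 5 CpG, 52 of 2361 starts (2.2%) lay inside an H3K4me3 peak. The share was 1.78% with 6 to 10 CpG, highest at 8.53% with 41 to 60, and 7.32% with 61 or more. Among the 169 Vmn1r genes with 0 to 5 CpG, 1 start lay inside an H3K4me3 peak.

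**Figure D2:**
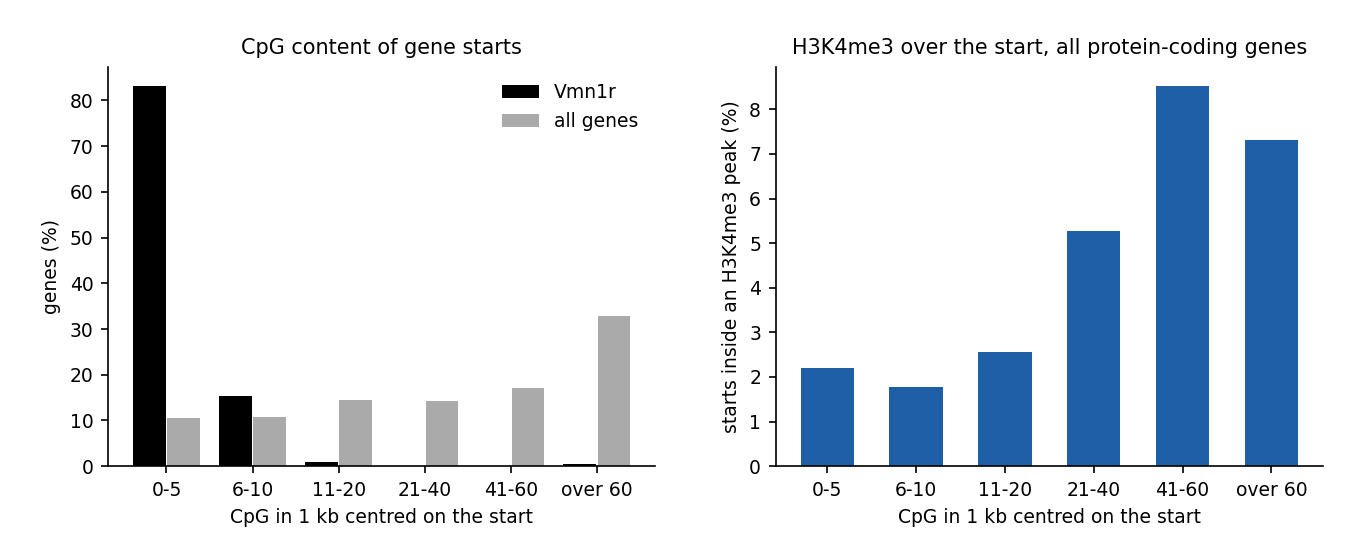
Left, share of Vmn1r genes (black) and of all protein-coding genes (grey) by the number of CpG in the 1 kb centred on the start. Right, share of all protein-coding starts inside an H3K4me3 peak in each class, which is 2.2% with 0 to 5 CpG, 8.53% with 41 to 60 and 7.32% with 61 or more.

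The stretches were then read as a whole, genes and spaces together. H3K79Hcy had 9 peaks in the 15 stretches, or 0.814 per Mb of known sequence (exact Poisson interval 0.372 to 1.54), against 2.89 per Mb in the genome. KHcy had 7 peaks, or 0.633 per Mb (0.254 to 1.3), against 2.85. H3K4me3 had 97 peaks, or 8.77 per Mb (7.11 to 10.7), against 7.56. At the density of the rest of each chromosome the same lengths would have held 22.5, 22.2 and 59.4 peaks. Over all stretches together there were fewer homocysteinylation peaks and more H3K4me3 peaks than that, and single stretches departed from this. Of the 22.5 H3K79Hcy and 22.2 KHcy peaks, the stretches of chromosome 6 alone accounted for 18.6 and 18.9. Of the 15 stretches, 13 had no H3K79Hcy peak, 11 had no KHcy peak and 6, with 45 genes, had no peak of any list. For many of them few peaks would be found at the density of the rest of the chromosome. The single stretches of chromosomes 1, 4, 13 and 18 would hold 0.00819, 0.0191, 0.343 and 0.000104 H3K79Hcy peaks. The 7 stretches of chromosome 7 would hold 2.41 together.

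**Figure D3:**
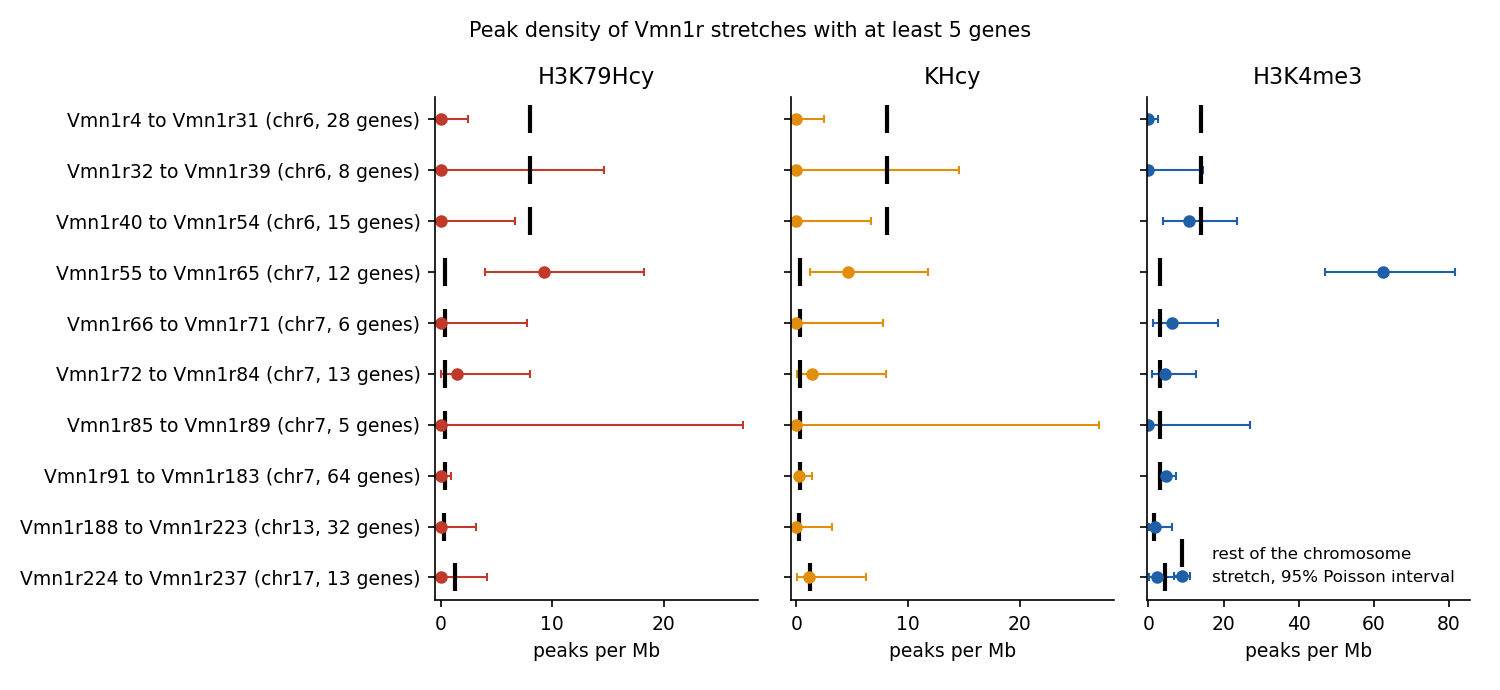
Peaks per Mb of the 10 Vmn1r stretches with at least 5 genes (points, with 95% exact Poisson intervals) and of the rest of the same chromosome (black bars). Vmn1r55 to Vmn1r65 stands apart at 9.25, 4.63 and 62.4 peaks per Mb, and the stretches of chromosome 6 hold 0 H3K79Hcy and 0 KHcy peaks where their chromosome has 7.98 and 8.12 per Mb.

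On chromosome 6, 3 stretches with 51 genes covered 2.33 Mb and held 0 H3K79Hcy peaks, 0 KHcy peaks and 6 H3K4me3 peaks, where the density of the rest of the chromosome would give 18.6, 18.9 and 32.7. The longest of them, Vmn1r4 to Vmn1r31, held 28 receptor genes and 5 other genes in 1.52 Mb without a peak of any list. Its surroundings were poor in peaks as well. The 1 Mb on each side together had 0.5 H3K79Hcy, 0 KHcy and 2 H3K4me3 peaks per Mb, so the low counts did not stop at the edges of the receptor genes. Vmn1r32 to Vmn1r39, with 8 genes, also held 0 peaks. The 6 H3K4me3 peaks lay in Vmn1r40 to Vmn1r54, with 15 genes, where they were all between protein-coding genes, with folds of 1.86 to 2.9. The peaks nearest to a member there lay 1.31 kb from Vmn1r42, 2.17 kb from Vmn1r46 and 2.59 kb from Vmn1r49.

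On chromosome 7, Vmn1r55 to Vmn1r65 was the exception among the stretches with at least 5 genes. Its 12 genes and 0.865 Mb held 8 H3K79Hcy peaks, 4 KHcy peaks and 54 H3K4me3 peaks, that is 9.25 per Mb (3.99 to 18.2), 4.63 per Mb (1.26 to 11.8) and 62.4 per Mb (46.9 to 81.5). The rest of chromosome 7 had 0.362, 0.288 and 3.14 per Mb. This single stretch held 8 of the 9 H3K79Hcy peaks of all Vmn1r stretches. Without it the other stretches had 1 H3K79Hcy peak (0.0981 per Mb), 3 KHcy peaks (0.294 per Mb) and 43 H3K4me3 peaks (4.22 per Mb), where the density of the rest of each chromosome would give 22.2, 21.9 and 56.7. Most of the H3K79Hcy and KHcy values came from chromosome 6, with 18.6 and 18.9 expected and 0 found. On chromosome 7 without this stretch, 1 H3K79Hcy peak stood against 2.1 and 2 KHcy peaks against 1.67. On chromosome 17 the values were 0 against 1.16 and 1 against 1.07. The shortfall was thus mainly that of 1 chromosome. For H3K4me3 the interval without this stretch was 3.05 to 5.68 per Mb, and its chromosomes went opposite ways, with 6 peaks against 32.7 on chromosome 6 and 32 against 18.2 on chromosome 7.

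The peaks of this stretch lay mostly outside the receptor genes. Of the 54 H3K4me3 peaks, 2 overlapped a Vmn1r gene, 11 another protein-coding gene and 41 lay between protein-coding genes. They covered 11.8% of the stretch and 5.54% of the bases of its Vmn1r genes. Their median fold was 2.78, close to the 2.59 of all H3K4me3 peaks, and 38 of them passed the stricter score. The 8 H3K79Hcy peaks all lay between protein-coding genes, 1 of them over a pseudogene, Vmn1r-ps45. Their folds were 2.24 to 3.3, with 19 to 28 reads, and 1 passed the stricter score. The nearest to a member was 5.79 kb from Vmn1r57. Of the 4 KHcy peaks, 1 lay in Nlrp2 and 3 between protein-coding genes, with folds of 2.44 to 2.8.

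**Figure D4:**
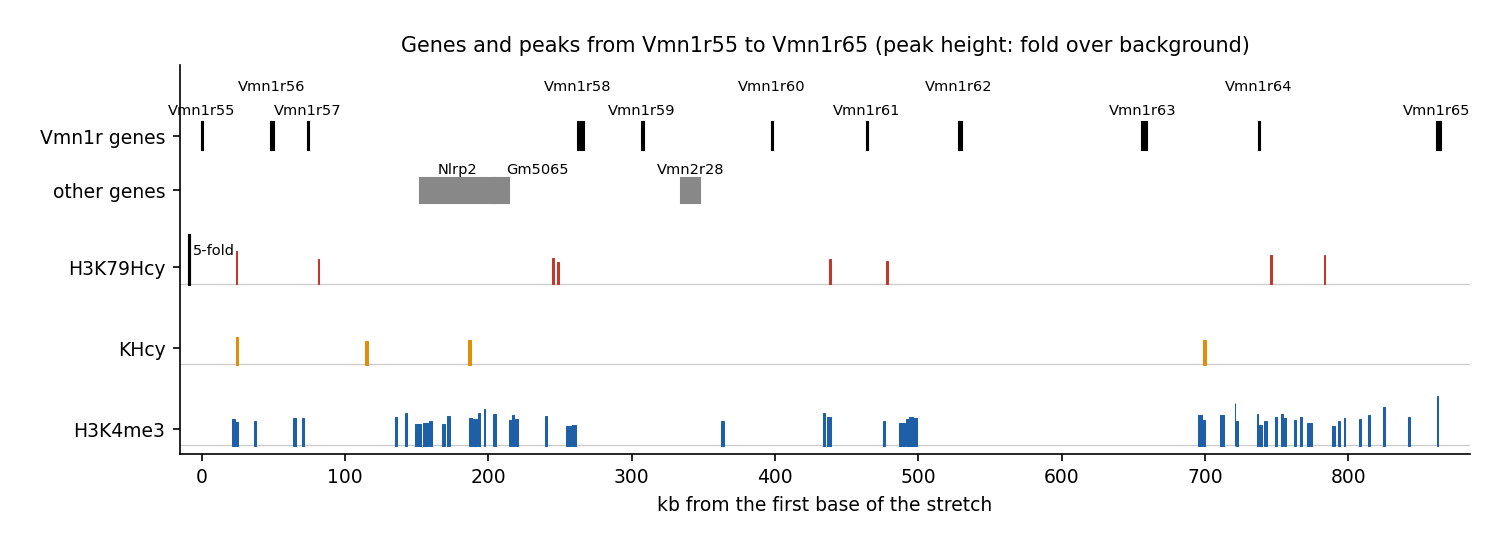
Map of Vmn1r55 to Vmn1r65 on chromosome 7, in kb from the first base of the stretch, with the Vmn1r genes in black, other genes in grey and the peaks of each list drawn to length, with the height giving the fold (the bar marks 5-fold). The 54 H3K4me3 peaks gather around Nlrp2 and from Vmn1r63 to Vmn1r65, and 2 of them touch a Vmn1r gene.

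The zone rich in peaks was wider than the receptor genes. The 1 Mb before the stretch held 6 H3K79Hcy, 5 KHcy and 16 H3K4me3 peaks, and the 1 Mb after it held 6, 3 and 62. Peak centres of H3K4me3 numbered up to 15 in bins of 100 kb inside the stretch and up to 12 in the bins after it. The 8 bins from 2200 kb after the first base of the stretch onward held 0 peaks of each list. For H3K4me3, the flank of equal length before the stretch held 16.2 peaks per Mb, the stretch 62.4 and the flank after it 64.9. The dense zone thus spanned the stretch of these 12 Vmn1r genes and ran on past the last of them, but it was patchy. The bins that begin 300, 500 and 600 kb after the first base of the stretch held 1, 0 and 2 H3K4me3 peaks. Vmn1r59, Vmn1r60, Vmn1r62 and Vmn1r63 lie in these bins. The H3K4me3 density of the zone rose close to the first of the 12 genes.

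**Figure D5:**
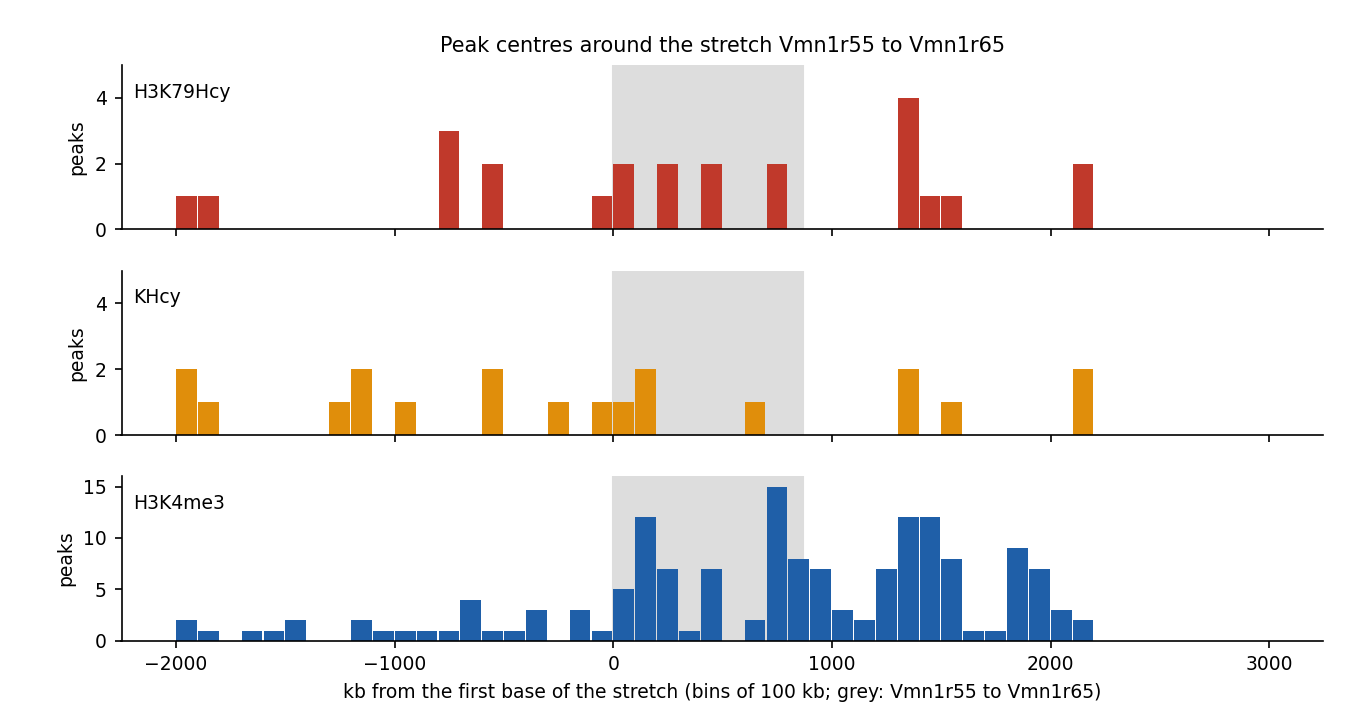
Number of peak centres in bins of 100 kb along chromosome 7, in kb from the first base of the stretch from Vmn1r55 to Vmn1r65 (grey). H3K4me3 reaches 15 peaks per bin in the stretch and 12 after it, and the last 8 bins hold 0 peaks of each list.

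The other 6 stretches of chromosome 7 together held 32 H3K4me3 peaks, or 5.52 per Mb (3.78 to 7.79), where the density of the rest of the chromosome would give 18.2. The stretch of Vmn1r90 alone held 7 of them, at 75.7 per Mb (30.5 to 156), against 3.14 for the rest of the chromosome. Its flanks of equal length held 5 before and 4 after, at 54.1 and 43.3 per Mb, both inside this interval. The density there was thus not particular to Vmn1r90. The largest stretch, Vmn1r91 to Vmn1r183, with 64 members in 4.05 Mb of known sequence, held 0 H3K79Hcy peaks, 1 KHcy peak and 19 H3K4me3 peaks, and the interval of its H3K4me3 density of 4.69 per Mb (2.82 to 7.32) included the 3.14 of the rest of the chromosome. This density is an average of 2 unlike parts. All of its peaks lay between chr7:24106201 and chr7:24600000, and no peak of any list lay from Vmn1r91 to Vmn1r165. Vmn1r66 to Vmn1r71, with 6 genes, held 3 H3K4me3 peaks and no other. Vmn1r72 to Vmn1r84, with 13 genes, held 1, 1 and 3 peaks for H3K79Hcy, KHcy and H3K4me3, and Vmn1r85 to Vmn1r89, with 5 genes, held 0 of each. On chromosome 13, Vmn1r188 to Vmn1r223 held 2 H3K4me3 peaks among 32 genes in 1.16 Mb, at 1.72 per Mb against 1.52 for the rest of the chromosome. On chromosome 17, Vmn1r224 to Vmn1r237 held 1 KHcy and 2 H3K4me3 peaks among 13 genes.

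The highest folds in the stretches of all lists fell at a single place between protein-coding genes. It lay within Vmn1r72 to Vmn1r84, 30.4 kb from Vmn1r77. There the H3K79Hcy peak (chr7:12595601-12596200) had 31 reads and a fold of 6.49, the KHcy peak (chr7:12595401-12596200) had 35 reads and a fold of 5.89, and the H3K4me3 peak (chr7:12595601-12596400) had 72 reads and a fold of 13. A second place shared by all 3 lists lay 22.9 kb from Vmn1r55, where the folds were 3.3 for H3K79Hcy, 2.8 for KHcy and 2.46 for H3K4me3. No other place in the stretches had a peak of each list. The middle 300 bases of the part common to the lists are shown for both places, from mm9, plus strand, because these are the sites in the stretches where homocysteinylation and H3K4me3 peaks met. In the first, capitals mark the 8-base unit CCCCAGGG, chosen after the window was seen, and in the second they mark each CpG.
chr7:12595751-12596050: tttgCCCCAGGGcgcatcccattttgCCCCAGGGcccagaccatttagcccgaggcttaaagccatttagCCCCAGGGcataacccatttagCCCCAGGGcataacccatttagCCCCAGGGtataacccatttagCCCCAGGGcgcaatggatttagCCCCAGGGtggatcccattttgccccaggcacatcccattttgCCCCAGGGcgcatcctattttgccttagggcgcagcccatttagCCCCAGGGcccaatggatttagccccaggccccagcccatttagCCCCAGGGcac
chr7:5122351-5122650: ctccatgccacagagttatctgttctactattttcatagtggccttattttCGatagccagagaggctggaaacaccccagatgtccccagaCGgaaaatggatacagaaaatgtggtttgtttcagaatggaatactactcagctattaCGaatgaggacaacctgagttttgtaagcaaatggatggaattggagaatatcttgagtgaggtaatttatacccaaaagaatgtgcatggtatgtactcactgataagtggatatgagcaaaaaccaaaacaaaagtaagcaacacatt
The first window held 10 copies of the unit on the plus strand, with other bases between the copies. Of 255846 windows of 300 bases at evenly spaced positions of the genome, 1.37% held the unit at least once on either strand and 0 held 10 or more copies. At the first place 40% of the 31-base words of the H3K79Hcy peak occurred more than once in the genome. The second held 0 copies, and 8.83% of the words of its H3K79Hcy peak were repeated. The part of repetition in these folds was not tested. The next H3K4me3 peak in fold after these and that of Vmn1r65 lay at chr7:5818401-5819000, 16.2 kb from Vmn1r64, with 18 reads and a fold of 4.34.

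Across the stretches, 5 of 7 KHcy peaks and 3 of 9 H3K79Hcy peaks overlapped an H3K4me3 peak, against 16.5% and 15.4% of all peaks of those lists. Of these, 3 KHcy and 2 H3K79Hcy peaks lay in Vmn1r55 to Vmn1r65. There H3K4me3 peaks covered 11.8% of the bases, against 1.61% of the genome, so the shares over whole lists are no matched reference. One of the KHcy overlaps, chosen here after its values were seen, lay 12.3 kb from Vmn1r174 in the largest stretch, where the KHcy peak had a fold of 2.26 and the H3K4me3 peak, with 39 reads, a fold of 4.03. None of the 31-base words of that H3K4me3 peak was repeated.

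Other protein-coding genes lie among the receptors, and 71 were counted in the stretches. H3K79Hcy peaks overlapped 0 of them, KHcy peaks 2 (Nlrp2 and Vmn2r110) and H3K4me3 peaks 6, where 7.82%, 9.28% and 19.7% of all protein-coding genes did. Of these 6, 4 were Nlrp genes, out of 8 Nlrp genes in the stretches. The Nlrp genes encode NOD-like receptor proteins, several of which are known from oocytes. Nlrp2 overlapped 10 H3K4me3 peaks, Nlrp4e 4, Nlrp5 3 and Nlrp4d 1. The starts of Nlrp2 and of its neighbour Gm5065 lay inside an H3K4me3 peak. These genes are longer than the receptors, at 30 to 61 kb for the 4 named. The 3 genes that keep an older symbol starting with V1r had 0 peaks, and so did the 37 genes with Gm symbols in the largest stretch, 35 of which are under 3 kb.

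Near-identical copies limit where reads can be placed, so the share of 31-base words that occur more than once in the genome was counted. The share was 60.9% over all Vmn1r bodies, against 45.5% for Vmn2r, 23.1% for Olfr and 16.9% at evenly spaced positions of the genome. It fell to 22.1% when only copies outside the Vmn1r stretches were counted, unplaced sequence of the assembly included. Single members ranged from 0 to 100%, with a median of 39.6%. In 29 genes every word was repeated, and in 28 genes under 5% were. From Vmn1r91 to Vmn1r165, a part of the largest stretch without a peak, members had 76.5 to 100%. Past Vmn1r165, where the peaks of that stretch lay, members had 24.1 to 80.0%. The largest stretch, Vmn1r91 to Vmn1r183, reached 88%, whereas Vmn1r4 to Vmn1r31, which held 0 peaks, had 31.7% and Vmn1r55 to Vmn1r65, which held the most, had 61.2%. These stretches differ in length and chromosome, and a relation over all 15 stretches was not tested. How the aligner placed reads with several matches is not given in the sources used here, and the part of repetition in the counts was not tested.

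The distance from Vmn1r starts to the nearest peak had a median of 1222 kb for H3K79Hcy, 1079 kb for KHcy and 236 kb for H3K4me3, against 352, 325 and 78.4 kb over all protein-coding starts. By chromosome the order changed. On chromosome 7 the H3K79Hcy median was 1689 kb for Vmn1r against 3512 kb for all genes there, and the H3K4me3 median was 261 kb against 322 kb. On chromosome 6 the same medians were 920 kb against 356 kb and 332 kb against 66.1 kb. An H3K4me3 peak lay within 10 kb of 14 Vmn1r starts (6.9%, 4.15 to 11.2%), against 22.7% of all starts. Besides the 3 genes named above these included Vmn1r57, Vmn1r58, Vmn1r42, Vmn1r46, Vmn1r49 and the pair Vmn1r2 and Vmn1r3 on chromosome 4. Within 10 kb of the start, H3K79Hcy peaks were found for 2 genes, Vmn1r57 at 6.72 kb and Vmn1r64 at 6.86 kb, and KHcy peaks for 0. Over all starts the shares were 4.38% and 5.69%. On chromosome 7 the H3K79Hcy share was 1.94% (0.534 to 6.81%) for Vmn1r and 0.82% for all genes. The H3K4me3 shares there were 7.77% (3.99 to 14.6%) and 5.41%. On chromosome 6 the H3K79Hcy shares were 0.0% and 11.7%, and the H3K4me3 shares 5.88% (2.02 to 15.9%) and 28.8%.

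Genes that serve the receptors in vomeronasal neurons were counted from a separate list, of which 22 were found in the annotation. H3K4me3 peaks overlapped 8 of the 22 bodies, H3K79Hcy peaks 4 and KHcy peaks 2, that is 36.4% (19.7 to 57.0%), 18.2% (7.31 to 38.5%) and 9.09% (2.53 to 27.8%), against 19.7%, 7.82% and 9.28% of all protein-coding genes. The 4 bodies with an H3K79Hcy peak were those of Ano2 (350 kb), Robo2 (520 kb), Ncam1 (297 kb) and Lhx2 (30.5 kb). The median length over all protein-coding genes was 15.4 kb, and gene length was not matched here. Of the signalling genes that act after a type 1 receptor, Gnai2, Gng8, Plcb2 and the channel gene Trpc2 had 0 peaks of each list, as had Omp, a marker of mature olfactory and vomeronasal neurons. Itpr3, for a calcium release channel, had 1 H3K4me3 peak. Ano2, for a calcium-activated chloride channel, stood apart, with 11 H3K79Hcy, 15 KHcy and 77 H3K4me3 peaks over 350 kb of chromosome 6. Lhx2, for a transcription factor that acts widely in neural development, had 1, 2 and 5. The 3 genes with an H3K4me3 peak over the start were Ebf2, Ncam1 and Nrp2, whose products also act in many other developing neurons.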

How the data were processed

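ChIP-seq peak lists of NE4C cells grown without HTL were used, 1 library for each of 3 antibodies, grouped by the antibody named in the labels. According to the methods, the authors used Bowtie 2 for alignment to mm9 and MACS (1.4.2 in the submitters' processing notes) for peaks, with a filter against input, while a figure legend names SICER. The authors deposited the count of reads in each peak, without scaling for depth or width, and a score of the peak caller. No value for a control is in the lists. The depth of each library beyond its peaks is unknown, and HTL-treated cells, controls and RNA-seq were not analysed here. Columns have no names in the files and were identified from their values.

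The background of each library (1.59, 1.49 and 1.38 reads per 200 bp window for H3K79Hcy, KHcy and H3K4me3) was solved from the deposited score of peaks of 1 window, of which there were 27, 8 and 14. The fold was the reads of a peak over this background for its length. Under the stricter score a peak had to lie at least ln(100) above the lowest score listed for its antibody. Positions are in mm9, counted from 1, and 0 peaks ended past a chromosome end. Genes came from GENCODE M1, an overlap required at least 1 bp, and the start was the annotated 5′ end. Repeated words were counted over both strands of the whole genome. Densities used bases outside assembly gaps. Intervals are at 95%, and a count of 0 was taken to allow 3 counts.

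Named were every Vmn1r gene with a peak, the 3 peaks of largest fold of each list in the stretches and the stretches with at least 5 genes, with further genes chosen after their values were seen. The members and lists of genes were chosen with earlier results of these data known. Sox1 and Tfap2e, which were on the lists, were not found under those symbols among the protein-coding genes. The alternatives were the stricter score, other overlaps and distances, merged peaks, lists cut to the 7300 peaks of largest fold and stretches left out. The counting functions were tested on simulated data. The tools were Python 3.11.15, NumPy 2.4.6, pandas 2.3.3, SciPy 1.17.1, numba 0.67.0, Biopython 1.88 and matplotlib 3.10.9.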

Additional observations from a re-analysis of the deposited data

How the results depend on the processing

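Of 76 alternatives tried, 63 left the value within 1.5 times the count or within its counting interval and 13 moved it. With the stricter score the H3K79Hcy density of the Vmn1r stretches was 0.181 per Mb, the H3K4me3 density 5.51 per Mb and the number of Vmn1r starts inside an H3K4me3 peak 0. This score left 2293 H3K79Hcy and 11469 H3K4me3 peaks in the lists, so these densities do not compare with the genome values of the full lists. Merging peaks within 3000 bp gave 5.97 H3K4me3 peaks per Mb, and lists of equal length gave 3.98, in both cases with fewer peaks in the list. Leaving out chromosome 7 gave 0 H3K79Hcy, 0.227 KHcy and 2.5 H3K4me3 peaks per Mb, since this chromosome held most of the peaks counted. Repeated words in Vmn1r bodies came to 22.1% when copies inside the stretches were not counted. Alternatives added after seeing the data were the following. Leaving out Vmn1r55 to Vmn1r65 gave 0.0981 H3K79Hcy and 4.22 H3K4me3 peaks per Mb. Counting starts with a peak within 10 kb gave 2 for H3K79Hcy (0.985%) and 14 for H3K4me3 (6.9%), against 4.38% and 22.7% of all starts. The number of Vmn1r bodies with an H3K4me3 peak was 2 or 3 under each alternative, and it was 0 for H3K79Hcy and for KHcy. No paired analysis was possible because each antibody has 1 library. The depth of the libraries is not known beyond the reads in peaks, so a place without a listed peak is not shown to lack the modification.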

Other observations

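Of 54 pseudogenes with Vmn1r symbols, with a median length of 924 bp, 1 overlapped an H3K79Hcy peak, 0 a KHcy peak and 1 an H3K4me3 peak. The first was Vmn1r-ps45 (chr7:5881103-5882057, minus strand), in the stretch from Vmn1r55 to Vmn1r65. Its peak, at chr7:5880801-5881600 with 19 reads and a fold of 2.98, lay 44.7 kb from Vmn1r64. The second was Vmn1r-ps85 (chr7:24563377-24564266, plus strand), in the stretch from Vmn1r91 to Vmn1r183.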
